A study of Mus musculus with 6 samples.

Results

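The 5 genes that encode the NF-kB transcription factor subunits of the mouse were examined for recovery of their RNA with YTHDF2 in regulatory T (Treg) cells. The genes Rela, Relb, Rel, Nfkb1 and Nfkb2 were taken by their Ensembl gene IDs, and all 5 of them, of 54446 gene IDs listed, were found. Each passed the filter on low counts that left 15615 genes for testing. RNA immunoprecipitation sequencing (RIP-seq) was done on 3 libraries of the YTHDF2 immunoprecipitation (IP) and on 3 Input libraries. The IP libraries hold the RNA recovered on beads with an antibody against mouse YTHDF2. The Input libraries hold total RNA from a part of the lysate that saw no antibody. All 6 libraries came from wild-type (WT) mice carrying a Foxp3-GFP reporter, in which live cells positive for CD45, CD4 and GFP were sorted from subcutaneous tumours of B16F10, a mouse melanoma line. The age and sex of the mice are not in the labels used here, and the labels do not say whether replicates 1 to 3 of a group were separate animals or pools. The p-values therefore describe spread among libraries, part or all of it possibly technical. A precipitation with a control antibody was not analysed here, so recovery is the level in the IP set against that in the Input. The Treg label was not checked against marker genes, since no table used here pairs the other gene IDs with symbols.

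NF-kB is a family of dimeric transcription factors that share the Rel homology domain, through which they dimerise and bind kB sites in DNA. RelA, RelB and c-Rel, the product of Rel, carry a transactivation domain. Nfkb1 and Nfkb2 encode the precursors p105 and p100, which hold inhibitory ankyrin repeats and are processed to p50 and p52. Canonical signalling from the T cell receptor and inflammatory cytokine receptors frees dimers of RelA or c-Rel with p50, and non-canonical signalling from some receptors of the tumour necrosis factor family frees RelB with p52. In Treg cells c-Rel promotes the induction of Foxp3, and RelA and c-Rel maintain the effector state. YTHDF2 is a cytoplasmic reader of N6-methyladenosine in mRNA that recruits the CCR4-NOT deadenylase and promotes decay of the bound transcript.

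Gene-assigned reads numbered 6847731 to 8465453 per IP library and 10029733 to 14704617 per Input library. Reads in no annotated feature took 71.7% ± 0.434 of the reads of an IP file and 50.4% ± 1.08 of those of an Input file (SD, n = 3 each). Between replicates of a group, chi-square per degree of freedom was at least 17.7, where sampling noise gives about 1, so no library was a repeat of another. Over the 15615 genes tested, 4.33% were called enriched in the IP and 6.11% depleted at an adjusted p under 0.05 (edgeR quasi-likelihood test, Benjamini-Hochberg adjustment over all genes). CPM is a read count divided by library size. Among the 3874 genes that averaged 50 CPM or more, a level that all 5 subunit genes exceeded, these shares were 14.7% and 16.9%.

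None of the 5 subunit genes was called enriched or depleted in the IP in the main fit, which held no term for replicate number. Nfkb1 and Rel had the highest fitted folds of IP over Input, 1.56 and 1.52, and for both genes each IP library lay above each Input library. Nfkb2 had a fold of 1.39 with overlapping groups. Relb, at 1.07, and Rela, at 0.853, had folds close to 1 with groups that overlapped. Before adjustment, 2 of the 5 genes were under 0.05 in edgeR's test, Nfkb1 at 0.00690 and Rel at 0.00883. That level was reached by 10.0% of all tested genes and 27.8% of genes of at least 50 CPM in the direction of the IP. DESeq2 called 1 of the 5 enriched, Nfkb1, and 6.63% of the genes to which it gave an adjusted p. With a term for replicate number, edgeR's test called 2 of the 5 enriched, Nfkb1 and Rel, and 5.33% of all tested genes. Levels of single genes below are CPM scaled by the trimmed mean of M values (TMM), which relate a gene to the other genes of its library and not to the amount of RNA. No transcript lengths were used, so levels, ratios and shares of reads do not compare the amounts of different transcripts. Only their change between IP and Input is read.

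**Figure D1:**
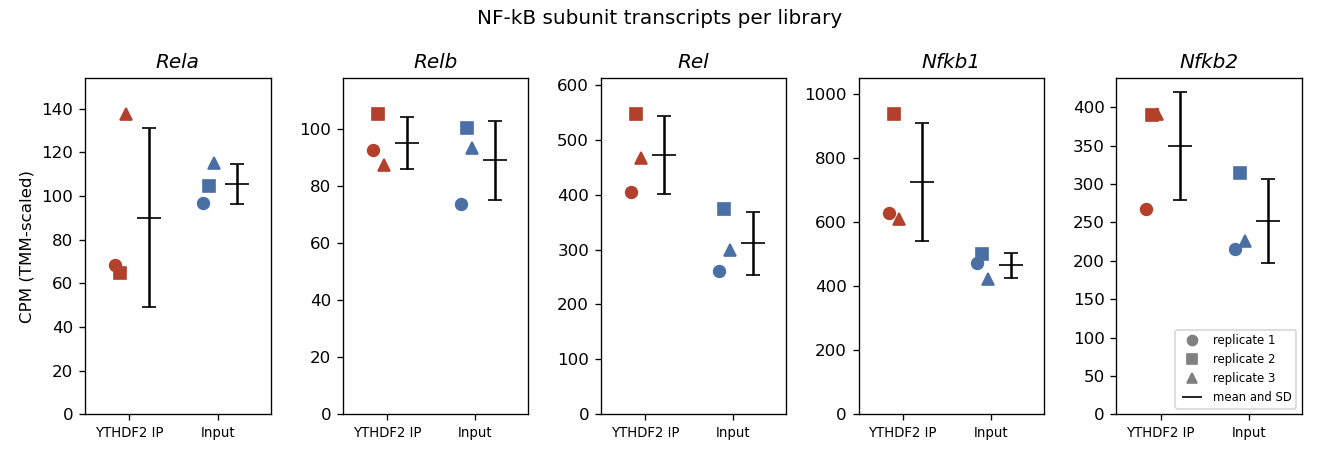
Level of each subunit transcript in CPM (vertical axes, starting at 0 and scaled per gene) in the 3 YTHDF2 IP libraries (red) and the 3 Input libraries (blue). Symbols mark the replicate numbers and black bars the mean and SD. For Rel and Nfkb1 the groups do not overlap, and for Rela the IP library of replicate 3, at 137 CPM, stands apart from the other 2, at 68.3 and 64.5 CPM.

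Rel (ENSMUSG00000020275) lies on chromosome 11 (GRCm38, 23736847 to 23770969) and encodes c-Rel. It had 405, 546 and 467 CPM in IP replicates 1, 2 and 3, from 3493, 3801 and 3975 reads, against 261, 374 and 299 CPM in Input replicates 1, 2 and 3, from 3664, 3582 and 3485 reads. The lowest IP library lay above the highest Input library, and the replicate with number 2 was the highest in both groups. The means were 473 ± 70.8 CPM in the IP and 311 ± 57.4 CPM in the Input (SD, n = 3 each). The log2 fold change was 0.60 ± 0.18 (SE), with a 95% interval of 0.19 to 1.01 and an adjusted p of 0.0692 in edgeR's test, so the difference did not pass. The 9 ratios of an IP to an Input library ran from 1.08 to 2.09, and those of replicates 1, 2 and 3 to the same number were 1.55, 1.46 and 1.56. In edgeR's test with a replicate block the adjusted p was 0.00923, and Rel was called enriched. Whether equal numbers share a lysate is not known. Separation of all IP libraries above all Input libraries occurred for 12.8% of tested genes and for 28.7% of genes of at least 50 CPM.

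Rela (ENSMUSG00000024927), on chromosome 19 (5637442 to 5648134), encodes the main transactivating partner of p50. It had 68.3, 64.5 and 137 CPM in IP replicates 1, 2 and 3, from 589, 449 and 1169 reads, against 97.0, 105 and 115 CPM in Input replicates 1, 2 and 3, from 1359, 1003 and 1342 reads. IP replicates 1 and 2 lay below every Input library, and IP replicate 3 lay above every one. The means were 90.0 ± 41.0 CPM in the IP and 106 ± 9.08 CPM in the Input (SD, n = 3 each). The coefficient of variation in the IP was 45.6%, where counting error alone gives 3.99%, and that of the Input was 8.60%. Over genes of at least 50 CPM its median was 24.1% for IP libraries and 11.6% for Input libraries. The log2 fold change of Rela was -0.23 ± 0.31 (SE), with a 95% interval of -0.92 to 0.47 and an edgeR adjusted p of 0.760. This value rests on IP replicate 3, which also had a read for the fewest gene IDs, 14200 against 19991 and 18501 in the other IP libraries. Without it the log2 fold change was -0.70 and Rela was called depleted with an edgeR adjusted p of 0.0496, the 1 call of Rela in 15 alternative settings. In that setting 1661 of 19027 tested genes were called depleted, against 954 of 15615 in the main fit.

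Relb (ENSMUSG00000002983), on chromosome 7 (19606217 to 19629438), encodes the partner of p52 in the non-canonical branch. It had 92.8, 105 and 87.3 CPM in IP replicates 1, 2 and 3, against 73.6, 100 and 93.4 CPM in Input replicates 1, 2 and 3. The groups overlapped, with IP replicate 3 below 2 of the Input libraries. The means were 95.1 ± 9.14 CPM in the IP and 89.1 ± 13.8 CPM in the Input (SD, n = 3 each). The log2 fold change was 0.09 ± 0.22 (SE), with a 95% interval of -0.41 to 0.60 and an adjusted p of 0.876 in edgeR's test. The interval covers both a modest depletion and a fold near that of Rel, so recovery like that of the average gene is not shown. Its sign was not stable: the log2 fold change was -0.02 without IP replicate 2 and -0.11 without Input replicate 1.

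Of the precursor genes, Nfkb1 (ENSMUSG00000028163) on chromosome 3 (135584655 to 135691969) encodes p105, the source of p50. It had 628, 938 and 612 CPM in IP replicates 1, 2 and 3, from 5419, 6526 and 5206 reads, against 472, 501 and 424 CPM in Input replicates 1, 2 and 3, from 6621, 4801 and 4945 reads. All IP libraries lay above all Input libraries, and IP replicate 2 was far above the other IP libraries. The means were 726 ± 184 CPM in the IP and 466 ± 39.1 CPM in the Input (SD, n = 3 each). The log2 fold change was 0.64 ± 0.19 (SE), with a 95% interval of 0.22 to 1.06 and an adjusted p of 0.0594 in edgeR's test. The 9 ratios of an IP to an Input library ran from 1.22 to 2.21, and those of replicates 1, 2 and 3 to the same number were 1.33, 1.87 and 1.44. In edgeR's test with a replicate block the adjusted p was 0.00696, and Nfkb1 was called enriched. Without IP replicate 2 the log2 fold change was 0.38, and edgeR's adjusted p was 0.155. Without IP replicate 3 it was 0.71, and Nfkb1 was called enriched with an edgeR adjusted p of 0.0271. In that setting 5.26% of tested genes were called enriched.

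Nfkb2 (ENSMUSG00000025225), on chromosome 19 (46300994 to 46312400), encodes p100, the source of p52 and an inhibitor of RelB dimers. It had 268, 389.9 and 390.9 CPM in IP replicates 1, 2 and 3, from 2314, 2714 and 3326 reads, against 215, 315 and 226 CPM in Input replicates 1, 2 and 3, from 3015, 3012 and 2635 reads. The groups overlapped through 1 pair of libraries, IP replicate 1 and Input replicate 2, so 8 of the 9 ratios of an IP to an Input library were above 1. The means were 349.7 ± 70.6 CPM in the IP and 252 ± 54.6 CPM in the Input (SD, n = 3 each). The log2 fold change was 0.47 ± 0.21 (SE), with a 95% interval of -0.01 to 0.95 and an adjusted p of 0.215 in edgeR's test. Leaving out Input replicate 1 moved it to 0.29, with an adjusted p of 0.686.

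The calls of Nfkb1 and Rel lay close to the threshold. Over 15 alternative settings Nfkb1 was called enriched in 8 and Rel in 5, and Nfkb2 and Relb in none. Upper quartile factors gave the highest log2 fold changes, 0.84 for Nfkb1 and 0.80 for Rel, and edgeR's adjusted p-values were 0.0174 and 0.0240. That scaling moved the median of all tested genes by 0.20. With library sizes from all reads of a file, the many reads outside genes in the IP included, the median of all tested genes moved by -0.53. The log2 fold changes were then 0.11 for Nfkb1, 0.08 for Rel, -0.04 for Nfkb2, -0.43 for Relb and -0.75 for Rela, and none was called. In that setting the median over all tested genes was -0.65, so all subunit genes but Rela stayed above it.

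**Figure D2:**
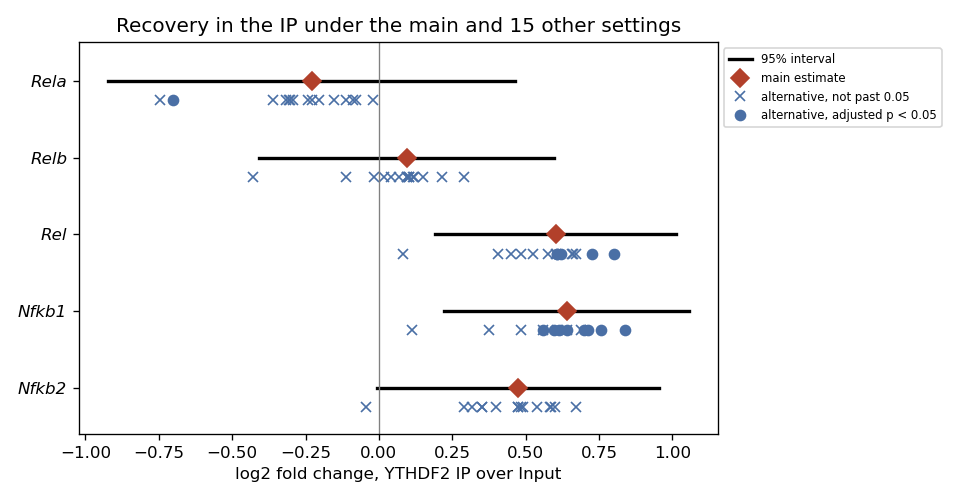
Log2 fold change of YTHDF2 IP over Input (horizontal axis) for each subunit gene. Red diamonds are the main estimates, black lines their 95% intervals, and blue marks the 15 alternative settings, filled where the adjusted p was under 0.05. The filled marks are 8 for Nfkb1, 5 for Rel and 1, below 0, for Rela.

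Among abundant transcripts the subunit genes lay well inside the distribution. Of the genes of at least 50 CPM, 77.0% had a lower log2 fold change than Nfkb1 and 75.3% a lower one than Rel. The shares were 69.1% for Nfkb2, 49.5% for Relb and 35.8% for Rela. The median log2 fold change was 0.47 over the 5 subunit genes, 0.10 over the genes of at least 50 CPM and -0.12 over all tested genes. With 5 genes that share their libraries, these positions are a description and carry no test.

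**Figure D3:**
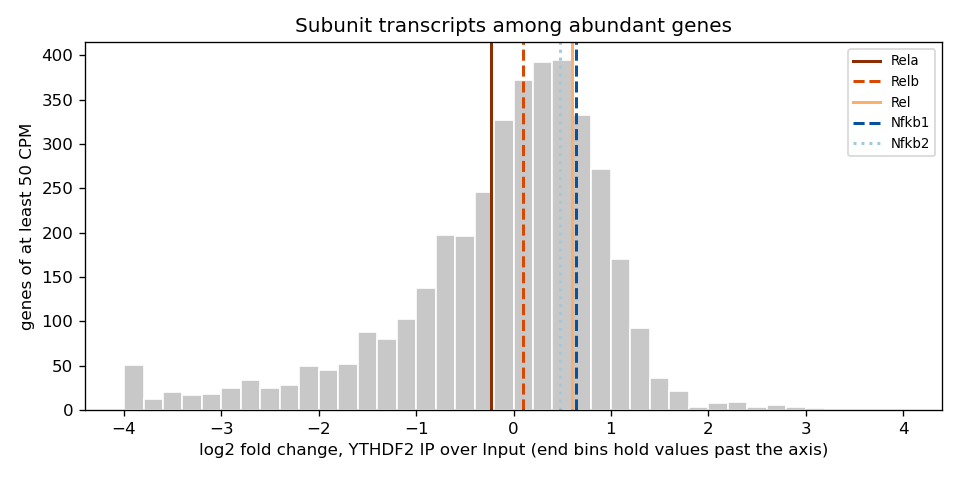
Number of genes of at least 50 CPM (vertical axis) by log2 fold change of YTHDF2 IP over Input (horizontal axis, bins of 0.2, the end bins holding more extreme values). Vertical lines mark the 5 subunit genes, from -0.23 for Rela to 0.64 for Nfkb1, all in the bulk of the distribution.

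The ratio of 2 genes within a library does not depend on how libraries are scaled, so it was used to compare the subunit genes with each other. For each of the 10 pairs, the log2 ratio of read counts was set between IP and Input by an exact two-sided permutation test, with the gene of higher recovery written on top. In 2 pairs the groups did not overlap, and both had Relb as the less recovered gene. These pairs are not independent, since they share Relb. The share of such pairs among all pairs of tested genes was not computed, so the count is a description. The log2 ratio of Rel over Relb was 2.12 to 2.42 in the IP and 1.68 to 1.90 in the Input, a difference of 0.50 ± 0.11 (SE). That of Nfkb1 over Relb was 2.76 to 3.16 in the IP and 2.18 to 2.68 in the Input, a difference of 0.51 ± 0.19 (SE). Each exact p was 0.1, the smallest that 3 against 3 libraries allow, and 0.429 after Benjamini-Hochberg adjustment over the 10 pairs, so no pair passed. Relative to the RelB transcript, those of c-Rel and p105 thus had higher ratios in each of the IP libraries than in any Input library, without passing the test.

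The third pair with Relb below, Nfkb2 over Relb, differed by 0.37 ± 0.21 (SE), with an exact permutation p of 0.3. The groups overlapped in all 4 pairs that contain Rela. Relb over Rela differed by 0.42 ± 0.43 (SE) between IP and Input, with an exact permutation p of 0.4. Nfkb1 over Rela differed by 0.93 ± 0.51 (SE), Rel over Rela by 0.92 ± 0.41 (SE) and Nfkb2 over Rela by 0.79 ± 0.36 (SE), with exact permutation p-values of 0.3, 0.2 and 0.2. In each of these 3 pairs the IP replicate 3 value lay within the range of the Input. Without that library the differences were 1.39, 1.28 and 1.05, each with an exact p of 0.1, the smallest that 3 against 2 libraries allow. Without IP replicate 2 they were 0.54, 0.62 and 0.50, with exact p-values of 0.4, 0.3 and 0.3. Relb over Rela was 0.83 without IP replicate 3 and 0.15 without IP replicate 2. Among the 3 transcripts with the highest fitted folds no order was resolved, and no pair that sets them against Relb or Rela passed. Nfkb1 over Rel differed by 0.01 ± 0.17 (SE), Rel over Nfkb2 by 0.13 ± 0.11 (SE) and Nfkb1 over Nfkb2 by 0.14 ± 0.24 (SE), with exact permutation p-values of 1, 0.3 and 0.6.

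**Figure D4:**
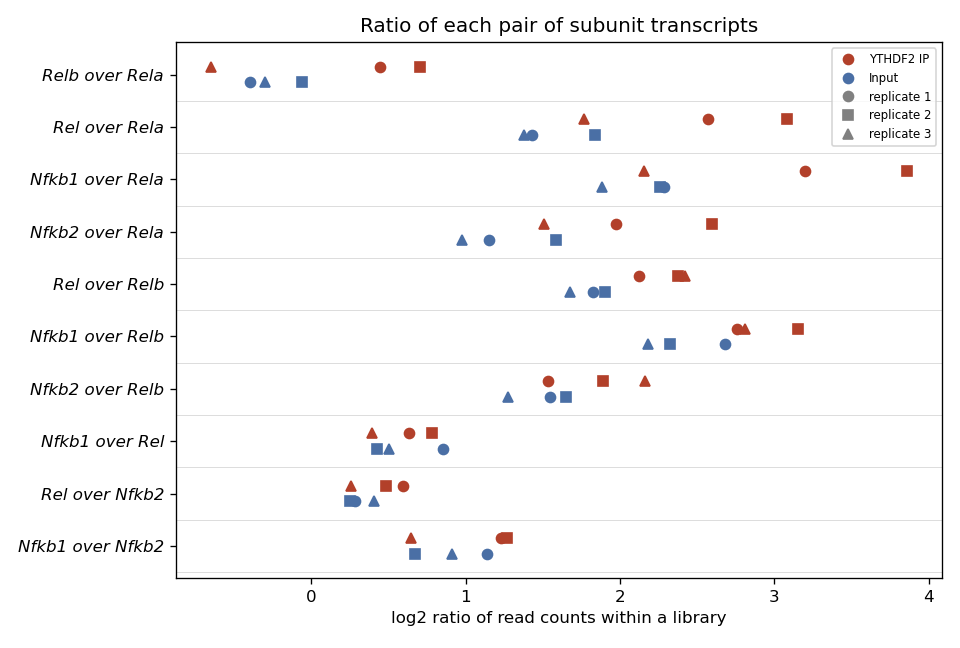
Log2 ratio of read counts of 2 subunit genes within each library (horizontal axis) for the 10 pairs (rows), with YTHDF2 IP libraries in red above Input libraries in blue and symbols for replicate numbers. The groups are separate for Rel over Relb and Nfkb1 over Relb, and the IP replicate 3 triangle is the lowest IP value in all pairs that contain Rela.

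Together the 5 genes took 0.181% ± 0.0296 of gene-assigned reads in the IP and 0.117% ± 0.0140 in the Input (SD, n = 3 each). Of all reads in a file they took 0.0449% ± 0.00779 in the IP and 0.0455% ± 0.00401 in the Input (SD, n = 3 each). The family total was thus higher in the IP only relative to reads in genes. Within the family, Rel took 27.3% ± 0.524 of the reads in the IP and 25.3% ± 1.78 in the Input, and Nfkb1 took 41.6% ± 5.02 and 38.3% ± 3.43 in the same order. Nfkb2 held 20.2% ± 2.54 in the IP and 20.4% ± 1.84 in the Input. Relb had 5.55% ± 0.692 in the IP and 7.28% ± 0.750 in the Input, with 5.15% to 6.35% against 6.58% to 8.07%, so its shares did not overlap. Rela had 5.31% ± 2.54 in the IP and 8.70% ± 1.22 in the Input, and its IP replicate 3 share of 8.11% fell inside the Input range of 7.51% to 9.94%. Shares sum to a whole, so a higher share of one gene lowers the others. They were not tested, and how often shares separate in this way in other sets of genes was not computed. The Relb shares rest on the same reads as the ratios to Relb above, so they add no separate result.

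**Figure D5:**
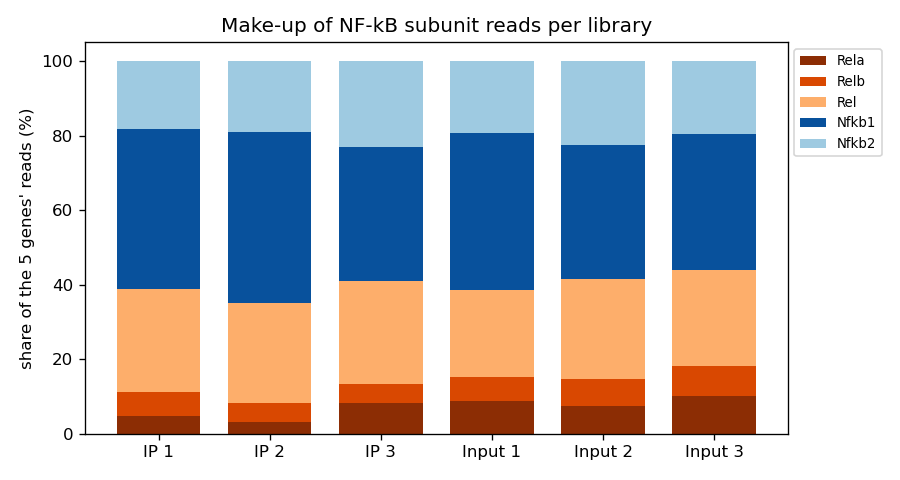
Share of the reads of the 5 subunit genes (vertical axis, percent) taken by each gene in the 3 IP and the 3 Input libraries. Nfkb1 holds 36.1% to 45.9% of an IP library and 35.9% to 42.2% of an Input library, and Relb holds less in every IP library than in any Input library. The shares were not tested.

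The profiles over the 6 libraries were compared as log2 CPM centred on each gene's mean. The closest members were Rel and Nfkb2, with a root mean square difference of 0.13, followed by Rel and Nfkb1 at 0.17. The farthest were Rela and Nfkb1 at 0.69. Among 8641 other genes averaging 10 CPM or more, the gene nearest to Nfkb1 was ENSMUSG00000028060, at 0.05. It had 130.3 ± 31.4 CPM in the IP and 87.8 ± 5.23 CPM in the Input (SD, n = 3 each) and a log2 fold change of 0.57 ± 0.23 (SE), and edgeR's adjusted p was 0.160. The gene nearest to Rela was ENSMUSG00000049106, also at 0.05, with 140.5 ± 60.0 CPM in the IP and 159 ± 8.60 CPM in the Input (SD, n = 3 each). The nearest of 8641 genes is close by selection, so these values describe only the profile.

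Rel and Nfkb2 are known targets of NF-kB itself, and the kB-like letters in their promoter windows are shown to place the genes in that circuit. RIP-seq measures RNA and says nothing about these promoters. RefSeq windows of GRCm38.p6 run from 250 bases before to 50 after an annotated start, and a gene can have several. Of the 5 genes, 3 had an entry, Rela with 1 window, Rel with 1 and Nfkb2 with 3. The Nfkb2 windows, the first beginning at base 46304487, lie inside the gene span of 46300994 to 46312400 and not at its outer end. Nfkb1 and Relb had no window and could not be searched, so nothing here sets Rel and Nfkb2 apart from them. The kB consensus was searched on both strands. It was found in 4 of these 5 windows, none in that of Rela, and in 4.51% of all 32851 windows. The Nfkb2 windows overlap in part, and the last match listed below lies in the overlap and is counted in each window that holds it. The windows are thus not separate units, and their count is not a rate to set against that of all windows. By gene, Rel and Nfkb2 had a match and Rela had none. Matches on opposite strands can also overlap. Each match is given on the gene's strand with 10 bases on either side, the match in capitals.
Rel, chr11:23771042-23771071, minus strand: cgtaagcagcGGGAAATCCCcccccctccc
Nfkb2, chr19:46304688-46304717, plus strand: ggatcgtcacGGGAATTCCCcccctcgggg
Nfkb2, chr19:46304716-46304745, plus strand: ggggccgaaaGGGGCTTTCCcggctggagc
Nfkb2, chr19:46305449-46305478, plus strand: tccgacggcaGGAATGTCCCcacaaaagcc
Nfkb2, chr19:46305695-46305724, plus strand: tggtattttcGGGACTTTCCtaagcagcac
The first Rel and the first Nfkb2 match each overlap a further match that starts 1 base later. A match is a run of letters, and no binding was measured here.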

How the data were processed

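Each library has 1 deposited file of raw read counts by Ensembl gene ID. HTSeq, HISAT2 2.1.0, Trimmomatic 0.39 and DESeq2 are the authors' tools and mm10 their build, per the submitters' processing notes. No annotation release, strand setting or handling of duplicates is given in the sources used here. Libraries were made with a stranded kit, so each count rests on the strand setting. The 92 spike-in IDs and 5 summary categories were left out of library sizes and tests. Counting was not by molecular identifiers, so counting errors cover reads only.

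The two-sided quasi-likelihood F-test of edgeR 4.0.16 (R 4.3.3) was run on genes kept by filterByExpr, with TMM factors, robust dispersions and group as the only term, with Benjamini-Hochberg adjustment over all tested genes and calls at an adjusted p under 0.05. Standard errors and 95% intervals come from the F statistic. The test was also run on simulated counts with the same dispersion for all genes and planted changes larger than those of the subunit genes. That run is no measure of its power or error rate in these data. Alternatives were other size factors, library sizes, filters, DESeq2 1.42.0, limma 3.58.1 voom, a test against a 1.5-fold change, a replicate block and each library left out.

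Subunit genes were chosen by ID, with earlier results of these data known, and all are named. The other IDs printed are the 2 closest in profile to a subunit gene (log2 CPM, prior count 2). Coordinates are from RefSeq on GRCm38.p6, matched by symbol. A list of other NF-kB pathway genes and cell type markers was not read out, because no table used here pairs their symbols with the files' IDs. Libraries were not treated as pairs in the main fit, because no label states that equal numbers share a lysate. Deviations of same-numbered libraries from their group means correlated at 0.0999, 0.026 and 0.0242. These values run over all tested genes, whose median coefficient of variation in the IP was 67.3%, so they cannot exclude pairing.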

Additional observations from a re-analysis of the deposited data

Results flagged for a closer look

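Reads outside annotated features are not part of the gene counts and were flagged as data that were not analysed. They made up 71.7% of the reads of an IP file on average and 50.4% of those of an Input file, and every IP library lay above every Input library. What these reads are was not tested.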

How the results depend on the processing

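Nfkb1 passed the threshold with upper quartile factors (log2 fold change 0.84), total counts (0.76), no filter (0.56), a filter of 1 CPM in all libraries (0.64), DESeq2 (0.70), limma voom (0.59) and a replicate block (0.61, adjusted p 0.00696), and without IP replicate 3 (0.71), and Rel with upper quartile factors (0.80), total counts (0.72), the filter of 1 CPM (0.61), limma voom (0.62) and the replicate block (0.61, adjusted p 0.00923). The number of subunit genes called enriched, 0 in the main setting, was thus 2 with upper quartile factors, total counts, the filter of 1 CPM, limma voom and the block, where 6.92%, 6.02%, 11.3%, 5.62% and 5.33% of tested genes were enriched, and 1 with no filter (1.82%) and DESeq2 (6.63%). With a library left out it was 0 to 1, where 1.09% to 5.26% of tested genes were enriched. The 1 call came without IP replicate 3, the setting with 5.26%. Leaving out 1 library gave log2 fold changes of 0.38 to 0.71 for Nfkb1, 0.40 to 0.67 for Rel, 0.29 to 0.59 for Nfkb2, -0.11 to 0.12 for Relb and -0.70 to -0.079 for Rela. Library sizes from all reads turned Relb to -0.43 and Nfkb2 to -0.043. The difference between Nfkb1 and Rel, 0.01, was -0.00307 with reads summed over libraries and -0.082 to 0.14 with a library left out. The other 9 pairs kept their direction with reads summed over libraries and with each library left out, runs that reuse the same libraries. The replicate block leaves each difference unchanged by its construction, and within the replicate numbers the exact p could not go below 0.25.

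Genes enriched numbered 676 in the main setting, 1081 with upper quartile factors, 160 with all reads, 1017 with the filter of 1 CPM, 1382 with DESeq2 and 205 against 1.5-fold. Genes depleted numbered 954, against 1958 with all reads, 2085 with DESeq2, 1715 with limma voom and 591 against 1.5-fold. Leaving out 1 library gave 188 to 1000 enriched and 563 to 1661 depleted genes. Enriched genes were 41.5% of calls, 57.4% with upper quartile factors, 51.8% with total counts, 7.55% with all reads, 25.8% against 1.5-fold. The CPM filter left 8961 genes and DESeq2 gave an adjusted p to 20847, against 15615 in the main setting. The 1.5-fold test asks for larger changes, and reads outside genes enter the sizes from all reads. Whether these or other differences moved the counts was not tested. The labels do not say that equal numbers share a lysate. Pathway list alternatives were not run for lack of gene names.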
